A study of Mus musculus with 24 samples.

Results

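The 39 protein-coding genes of the 4 mouse Hox clusters were followed through RNA sequencing of whole lung and whole small intestine dissected from embryos at E11.5. Members were taken by symbol (Hox, a cluster letter and a paralogue number) and by protein-coding biotype, which gave 39 of the 55536 genes in the table. There were 24 libraries in 6 groups of 4: lung and intestine, each from Cenpj mutants (ShhCre Cenpj-/lox), Ift88 mutants (ShhCre Ift88-/lox) and controls (ShhCre Cenpj+/lox). All 6 groups carried ShhCre, whose Cre follows the expression of Shh and so acts in the epithelium of both organs, and mesenchyme was not a target of the deletion. In mutants the mesenchyme still carries the - allele of the genotype, which the controls do not have. The controls were heterozygous for the conditional Cenpj allele and served for both mutants, so the Ift88 mutants differed from them at the Cenpj locus too. Cenpj is needed to build centrioles and Ift88 carries cargo along cilia. The labels do not say whether the libraries of a group came from separate embryos, so p-values measure only the spread between these libraries, which may be technical. Ddx3y, a Y-linked gene, had 7740.3 normalized counts in lung control 1 and 8062.6 in intestine control 1. The other controls had at most 47.2, so the controls of an organ were not all repeats of the same material.

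Hox genes encode homeodomain transcription factors that give cells their position along the head-to-tail axis. Within a cluster the genes lie in the order in which they are expressed, with low-numbered paralogues starting earlier and nearer the head, and high-numbered paralogues later and nearer the tail. Members with the same number in different clusters, here called a group, arose by duplication and often act together, and Pbx and Meis proteins bind DNA with them as cofactors. In the gut tube the mesenchyme expresses most of the Hox genes, and their borders fall near the borders of the organs.

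HoxA held 11 members (chr6:52155590-52260880, minus strand), HoxB 10 (chr11:96194316-96368256, plus strand), HoxC 9 (chr15:102921103-103036852, plus strand) and HoxD 9 (chr2:74668310-74765142, plus strand), all in GRCm38 coordinates as the table gives them. Hoxd3 and Hoxd4 share 62.3% and 52.3% of their exon bases with genes on the same strand (each other and Gm28230), so their values are uncertain. Exons of other members overlap antisense genes, most of all Hoxb3, where 52.9% of exon bases lie opposite Hoxb3os, Hoxa11 (35%), Hoxb2 (27.3%), Hoxa3 (25.4%) and Hoxa7 (20.4%). The strand setting of the counting was not given in the labels, so reads of these genes and their antisense partners cannot be told apart.

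The promoters of Hoxa5, Hoxa6, Hoxa7 and Hoxb8 are shown because Hoxa5, Hoxa6 and Hoxa7 lie on both sides of the place in HoxA where lung fell below intestine, and Hoxb8 is the one HoxB member beyond that place with a promoter at hand. Hoxa5 was higher in lung, and Hoxa6, Hoxa7 and Hoxb8 were lower. Each is the 250 bases before the RefSeq start of the gene in GRCm38.p6, read 5′ to 3′ on the strand of the gene, and capitals mark every TTTAT on either strand, the core of the sites bound by Cdx factors, gut and trunk regulators known to act on Hox genes in mice. The windows are chr6:52204588-52204837 for Hoxa5, chr6:52208673-52208922 for Hoxa6, chr6:52218574-52218823 for Hoxa7, all on the minus strand, and chr11:96281655-96281904 on the plus strand for Hoxb8.
Hoxa5: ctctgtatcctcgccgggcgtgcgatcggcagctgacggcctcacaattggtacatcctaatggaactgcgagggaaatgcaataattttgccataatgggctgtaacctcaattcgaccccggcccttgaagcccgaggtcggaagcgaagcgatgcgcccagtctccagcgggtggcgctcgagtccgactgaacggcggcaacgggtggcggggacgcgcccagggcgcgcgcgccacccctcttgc
Hoxa6: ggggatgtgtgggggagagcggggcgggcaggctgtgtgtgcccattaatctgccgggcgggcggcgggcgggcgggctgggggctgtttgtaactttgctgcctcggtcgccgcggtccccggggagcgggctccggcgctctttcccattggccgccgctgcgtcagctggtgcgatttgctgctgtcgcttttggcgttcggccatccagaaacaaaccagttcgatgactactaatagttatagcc
Hoxa7: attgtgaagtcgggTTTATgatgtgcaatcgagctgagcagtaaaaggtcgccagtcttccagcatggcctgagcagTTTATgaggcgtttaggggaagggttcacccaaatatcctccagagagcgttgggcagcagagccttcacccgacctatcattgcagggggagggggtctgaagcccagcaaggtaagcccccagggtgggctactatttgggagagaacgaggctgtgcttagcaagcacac
Hoxb8: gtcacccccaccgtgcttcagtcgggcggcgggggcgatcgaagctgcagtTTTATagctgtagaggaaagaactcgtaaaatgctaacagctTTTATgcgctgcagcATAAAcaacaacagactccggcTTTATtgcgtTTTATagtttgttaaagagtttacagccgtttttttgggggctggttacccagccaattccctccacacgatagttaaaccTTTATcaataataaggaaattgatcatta
TTTAT occurred 6 times in the Hoxb8 window, 2 times in that of Hoxa7 and 0 times in those of Hoxa5 and Hoxa6. RefSeq promoters were at hand for 22 of the 39 members (24 promoters), and 9 of the 24, or 37.5%, held the motif, against 37.26% of all 32851 promoters. It stood in 4 of the 8 promoters of members that were lower in lung than in intestine (Hoxa7, Hoxb8, Hoxd3 and Hoxd4) and in 1 of the 4 of members that were higher (Hoxd13). A match is a description of the letters, not a binding site.

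The values are normalized counts, which are reads divided by one size factor per library, and the libraries held 96123705 to 120880769 reads each. With the lowest and highest read counts left out, rarely detected genes most often held 13 to 40 reads in a library. A value of about 50 can therefore stand for very few molecules, though molecules were not counted. Each organ had a marker near 0 in the other: Nkx2-1, which defines lung epithelium, had 2977 to 15688 normalized counts in the 12 lungs and at most 14 in the intestines, and Isx, an intestinal factor, had 0 in every lung and 702 to 3178 in the intestines. Of 9 lung epithelium genes limma called 7 higher in lung and 1 lower, and of 7 intestinal epithelium genes 0 and 5. Of 5 lung mesenchyme genes 3 were higher and 1 lower, and of 6 for gut mesenchyme 0 and 6. Over all genes it was 6.66 and 8.86 percent. Summed stomach markers were 30440 to 52850 in intestine and 5885 to 20190 in lung, and their tissue of origin was not tested. Ift88 averaged 1973 ± 319 normalized counts in Ift88 mutant lungs and 2637 ± 309 in control lungs (SD, n = 4 each). Cenpj averaged 2577 ± 340 in Cenpj mutant lungs and 3433 ± 820 in control lungs (SD, n = 4 each). The tissue also holds mesenchyme, which in mutants carries the - allele beside the lox allele. The parts of epithelium and mesenchyme in these differences were not tested. Ribosomal RNA and Rn7sk were high in 10 libraries: all 8 of Cenpj mutants, lung control 3 and intestine control 2. The kind of library and the Cenpj genotype therefore largely coincide, whereas both organs of a mutant genotype were of one kind. Among Cenpj mutants both measures were higher in every lung than in any intestine. In whole organs, fewer cells that express a gene and less of its RNA per cell cannot be told apart.

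**Figure D1:**
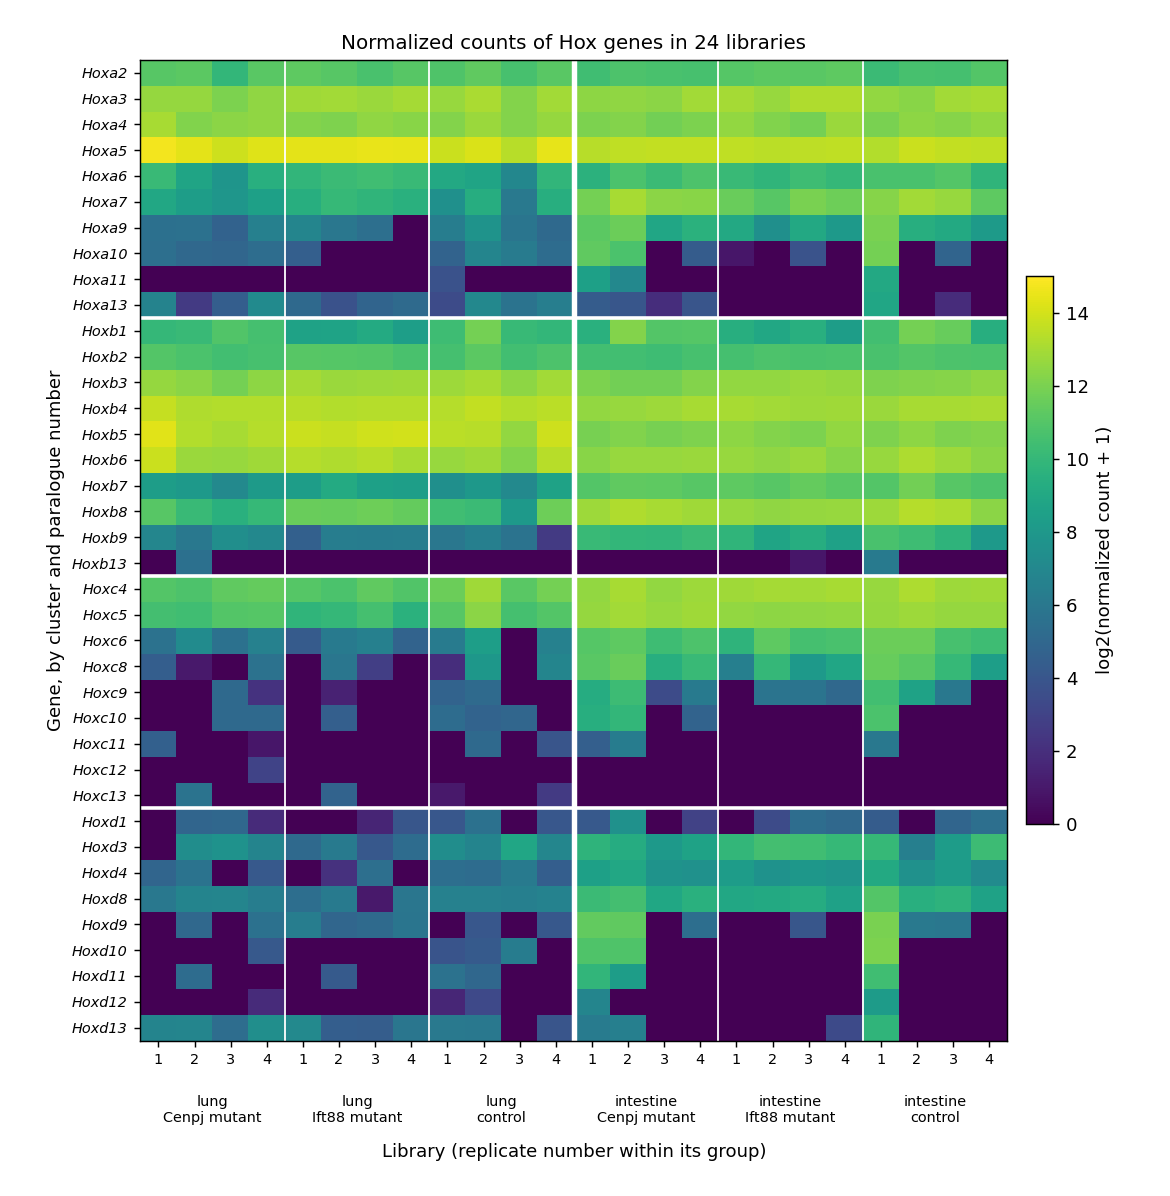
Each row is a Hox gene reported here, ordered by cluster and paralogue number, and each column one of the 24 libraries; colour gives log2(normalized count + 1). Low-numbered HoxA and HoxB genes are bright in every library, the middle of HoxC and HoxD is bright in intestine, and most of groups 10 and 11 are bright only in intestine Cenpj mutants 1 and 2 and intestine control 1.

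All 24 libraries held Hox transcripts, and in each of them Hoxa5 had the highest level per kilobase of exon. Hoxa5 is needed for the trachea and lung to form normally in mice. Its level averaged 10500 normalized counts per kilobase in lung (lowest library 5688, highest 14260) and 6378 in intestine (5371 to 7442). In lung Hoxb5 (mean 4494), Hoxb6 (4351), Hoxb4 (4151) and Hoxa4 (3521) followed on the per-kilobase scale, and their ranges overlapped, so their order is not resolved. In intestine the next members per kilobase were Hoxb6 (3291), Hoxa4 (3077), Hoxb4 (2974), Hoxc4 (2914) and Hoxb8 (2837), again with overlapping ranges. Hoxa4, Hoxa5, Hoxb4 and Hoxb6 were thus near the top in both organs, Hoxb5 ranked 2 in lung and 8 in intestine, and Hoxc4 ranked 9 in lung and 5 in intestine. Hoxc12 stayed under the mean of 1 normalized count set for testing and had 7 normalized counts in lung Cenpj mutant 4 and 0 elsewhere.

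In HoxA and HoxB the called members up to Hoxa5 and Hoxb6 were higher in lung, and those of groups 6 to 9 beyond them were lower. In the comparison of lung with intestine, averaged over the 3 genotypes, 22 of the 38 members tested were called by limma at an adjusted p under 0.05, 8 higher in lung and 14 lower. Over all 32098 genes tested 15.5 percent were called, 6.66 percent higher and 8.86 percent lower. The median log2 fold change was -0.70 over the members and 0.00 over all genes, and it stayed at -0.70 with Hoxc13, listed at 0 in every intestine, set at a floor of 3 counts per library. By paralogue group, 2 of the 8 members of groups 1 to 3 were higher and 1 lower, with a median log2 fold change of 0.04. In groups 4 to 8, 4 of 15 were higher and 10 lower, with a median of -1.99. In groups 9 to 13, 15 of 16 members were tested, and 2 were higher and 3 lower. The median of the 15 was -0.69. Leaving out any 1 of the 24 libraries left between 20 and 22 members called, and without intestine Cenpj mutants 1 and 2 and intestine control 1, which held most reads of groups 10 and 11, 7 were higher and 13 lower.

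Small differences of either sign that did not pass the test stood at the low-numbered ends. Hoxa2 (log2 fold change 0.16), Hoxa3 (-0.08), Hoxa4 (0.20), Hoxb1 (-0.36) and Hoxb2 (0.15) had ranges that overlapped between the organs. Among called members the change of sign fell between Hoxa5 and Hoxa6 in HoxA and between Hoxb6 and Hoxb7 in HoxB. HoxC has no members below Hoxc4, and all of its 5 called members (Hoxc4, Hoxc5, Hoxc6, Hoxc8 and Hoxc9) were lower in lung. In HoxD, Hoxd3, Hoxd4 and Hoxd8 were lower and Hoxd13 higher, and Hoxd1, at 0 to 47 normalized counts in lung and 0 to 192 in intestine, was not called.

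**Figure D2:**
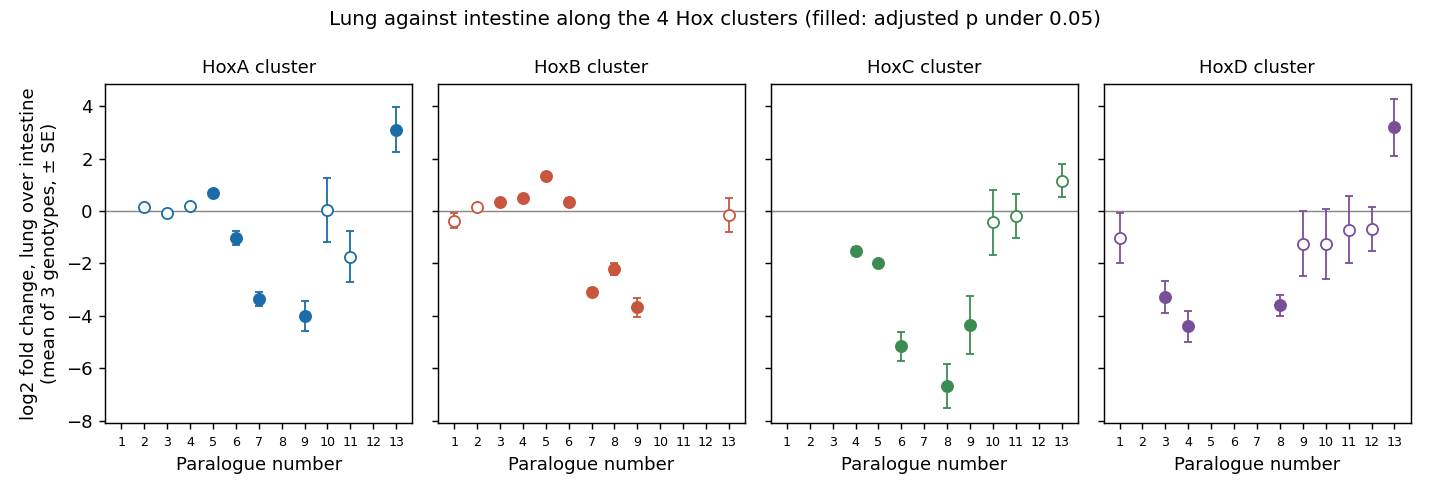
Each panel is a cluster, with the paralogue number on the x axis and the log2 fold change of lung over intestine (mean of 3 genotypes, limma) on the y axis; bars are SE, and filled points passed an adjusted p of 0.05. HoxA and HoxB lie at or above 0 up to Hoxa5 and Hoxb6 apart from small negative values of Hoxa3 and Hoxb1, and drop below it at Hoxa6 and Hoxb7, with Hoxa10 and Hoxa13 above 0 again, while HoxC is negative from Hoxc4 to Hoxc11.

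Among the members higher in lung, Hoxb5 had the largest difference of those with substantial levels. Hoxb5, a regulator of airway branching and of enteric neurons in mice, had 20355, 9798, 8544 and 10138 normalized counts in Cenpj mutant lungs, 12987 to 16067 in Ift88 mutant lungs and 6106 to 14568 in control lungs. In intestine it had 3813 to 4634 in Cenpj mutants, 4269 to 6113 in Ift88 mutants and 4389 to 5557 in controls. All lungs but control 3 lay above all intestines, and the log2 fold change was 1.35 (SE 0.12, limma adjusted p 1.26e-09). Hoxa5 had 10676 to 26769 normalized counts in lung (median 21090) and 10082 to 13968 in intestine (median 12150). Control 3 was the only lung inside the intestinal range, and the log2 fold change of Hoxa5 was 0.69 (SE 0.09, adjusted p 1.61e-06). Hoxb4, known for its role in blood stem cells, was the only member whose 12 lungs (9482 to 13318.5) all lay above the 12 intestines (6077 to 8909.5). Over all genes 0.829 percent showed that separation. Hoxb3 (log2 fold change 0.36) and Hoxb6 (0.36, adjusted p 0.0428) were also called in this direction. The call of Hoxb6 was lost with 14 of the 24 libraries left out in turn, with the replicate number as a block (adjusted p 0.0518), with no filter (0.0653) and without the 3 intestines rich in groups 10 and 11 (0.157).

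There were 8 members with all 12 lungs below all 12 intestines: Hoxa7, Hoxb7, Hoxb8, Hoxb9, Hoxc5, Hoxc6, Hoxd4 and Hoxd8. Over all genes 1.23 percent did so. These genes pattern the trunk skeleton in mice, among other roles. Hoxb7 had 131 to 581 normalized counts in lung (median 306) and 1824 to 3538 in intestine (median 2259), with a log2 fold change of -3.09 (SE 0.17, limma adjusted p 4.57e-14). Its neighbour Hoxb6, on the other side of the change of sign, had 4548 to 14137 in lung (median 7962) and 5051 to 8975 in intestine (median 6558), and the organs overlapped. Hoxa6 had 123 to 1364 in lung (median 811) and 799.8 to 2002 in intestine (median 1245), also with overlap, and a log2 fold change of -1.03 (SE 0.25, adjusted p 0.00393). Hoxa7 had 239 to 503 in Cenpj mutant lungs, 690.3 to 1059 in Ift88 mutant lungs and 65.6 to 679.6 in control lungs. In intestine Hoxa7 had 3698 to 8293.5 in Cenpj mutants, 2241 to 3981 in Ift88 mutants and 2512 to 7767.5 in controls, and its log2 fold change was -3.36 (SE 0.27, adjusted p 1.38e-10).

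HoxC showed the largest differences. Hoxc8, which patterns the thoracic skeleton, had 0 to 245 normalized counts in lung (median 4.35) and 89.2 to 3061 in intestine (median 1021), with a log2 fold change of -6.68 (SE 0.84, limma adjusted p 6.39e-07). Only lung controls 2 and 4 had more than 59.2, and these overlapped the lowest intestine, Ift88 mutant 1. Hoxc6 had 0 to 334 in lung (median 72.8) and 878 to 3229.5 in intestine (median 1702), without overlap, and a log2 fold change of -5.16 (SE 0.56, adjusted p 4.66e-08). Hoxc5 and Hoxc4, at the low-numbered end of the cluster, differed less: the log2 fold changes were -1.99 (SE 0.14, adjusted p 6.35e-12) and -1.51 (SE 0.13, adjusted p 3.00e-10). Hoxc4 had 1701 to 7440 in lung (median 2450) and 6062 to 9018 in intestine (median 7471), and the single lung inside the intestinal range was control 2. In HoxD, Hoxd4 had 0 to 67.9 in lung (median 25) and 152 to 551 in intestine (median 226), with a log2 fold change of -4.41 (SE 0.60, adjusted p 2.36e-06). Hoxc9 had 0 to 35 in lung, 9.6 to 1230 in Cenpj mutant intestines, 0 to 53.8 in Ift88 mutant intestines and 0 to 1427 in control intestines. Its log2 fold change was -4.34 (SE 1.10, adjusted p 0.00533) with all libraries and -3.04 (adjusted p 0.0775) without the 3 intestines rich in groups 10 and 11. A fold change here is a difference between means of log2(normalized count + 1). The added 1 draws low values together, but libraries at 0 weigh heavily in a mean of logs, so for genes near 0 the fold change can also exceed the ratio of the mean counts, as for Hoxc8 (mean 41.4 in lung and 1292 in intestine).

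The organ difference was also taken in each genotype, as 3 contrasts of a single fit to all 24 libraries. The 3 contrasts compare means of different libraries, but they share one estimate of the spread. Their calls are therefore not separate tests. Cenpj mutants gave 4 members higher in lung and 12 lower, where 6.51 percent of all genes were called, 2.53 percent higher and 3.98 percent lower. Ift88 mutants gave 5 higher and 11 lower, against 8.47 percent of all genes, 3.1 percent higher and 5.37 percent lower. Controls gave 4 higher and 11 lower, against 5.33 percent, 2.6 percent higher and 2.73 percent lower. The same direction was called in all 3 genotypes for 11 members: Hoxb4 and Hoxb5 higher, and Hoxa7, Hoxa9, Hoxb7, Hoxb9, Hoxc4, Hoxc5, Hoxc6, Hoxc8 and Hoxd8 lower. Over all genes 1.15 percent were higher and 1.75 percent lower in all 3. The calls of Hoxb5, Hoxa7, Hoxb7, Hoxb9 and Hoxc5 held in all 3 genotypes under each of the 21 alternatives. In controls the call of Hoxa9 (limma adjusted p 0.0397) was lost in 12 of the 21, that of Hoxc8 in 5 and that of Hoxb4 in 4. Hoxb7 had log2 fold changes of -3.27 in Cenpj mutants, -2.63 in Ift88 mutants and -3.38 in controls. Without intestine Cenpj mutants 1 and 2 and intestine control 1, which are described next, Cenpj mutants gave 4 higher and 7 lower and controls 3 and 9. Both organs of the Ift88 mutants were free of ribosomal-rich libraries, and both organs of the Cenpj mutants held nothing else. These 2 contrasts thus compare means of libraries of one kind, with a spread taken from libraries of both kinds.

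Members of groups 10 and 11, which pattern the lumbar and sacral spine, the limbs and the kidney, were high in 3 of the 12 intestines and near 0 in the rest. Hoxd10 had 1853, 1859.5, 0 and 0 normalized counts in Cenpj mutant intestines, 0 in all 4 Ift88 mutant intestines, and 4232, 0, 0 and 0 in control intestines. Hoxa10 had 2629, 1756, 0 and 19.6 in Cenpj mutants, 0 to 13.5 in Ift88 mutants, and 3762, 0, 27.4 and 0 in controls. The 3 libraries were Cenpj mutants 1 and 2 and control 1, for every member of groups 10 and 11. Hoxd9 had 2709 and 2551 in these Cenpj mutants and 4022 in control 1, against 0 to 67.2 in the other 9. Hoxc10 had 675.6 and 984.8 in the Cenpj mutants and 1729 in control 1, against 0 to 26.4 in the other 9. The summed normalized counts of groups 10 and 11 were 6499 and 5127 in Cenpj mutants 1 and 2, 11660 in control 1, and 0 to 46 in the other 9 intestines. In the 12 lungs they were 0 to 223. The other members of these groups followed the same 3 libraries at lower levels: Hoxd11 had 950.4 and 323.3 in the Cenpj mutants and 1340 in control 1, Hoxa11 had 368.6 and 126.1 and in control 1 535.6, and both were 0 in the other 9. Hoxc11 had 22.5 and 76.8 in the Cenpj mutants and 63.1 in control 1, and 0 in the other 9.

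**Figure D3:**
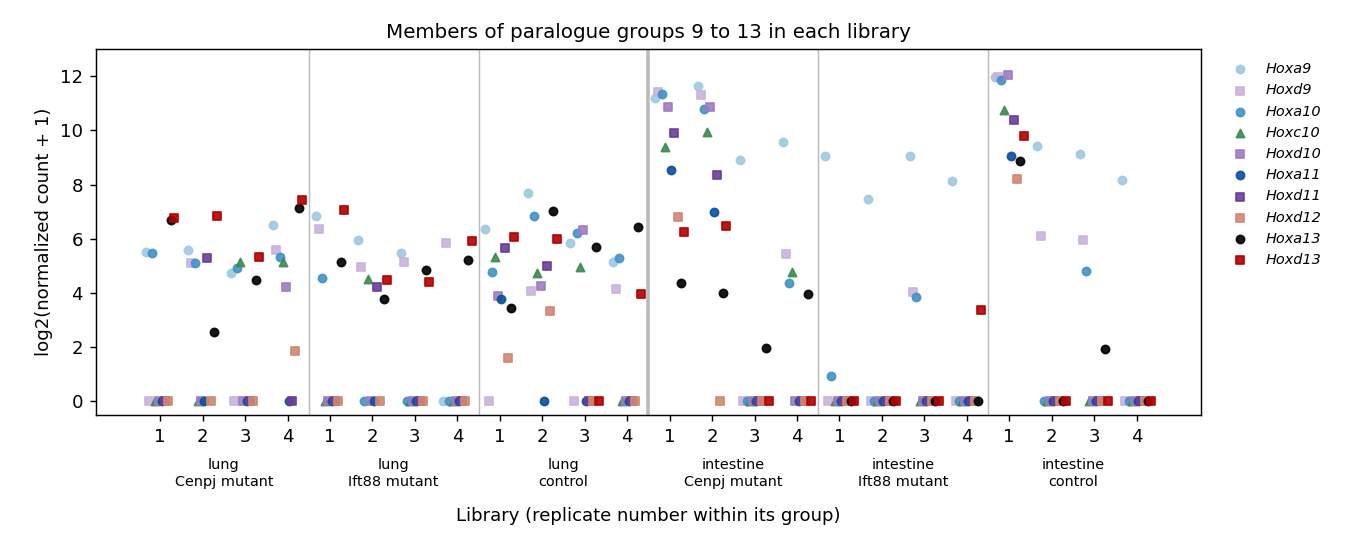
The x axis gives the 24 libraries by group and the y axis log2(normalized count + 1) of 10 members of groups 9 to 13, each with its own symbol and a small sideways offset. In intestine Cenpj mutants 1 and 2 and intestine control 1 most of these genes stand above 6 on this scale, and in the other 9 intestines Hoxa9 alone does so apart from Hoxd9 in control 2.

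Hoxa13, Hoxd12 and Hoxd13, further along the clusters, were highest in intestine control 1. Hoxd13, a digit and hindgut gene, had 75.3 and 87.1 normalized counts in Cenpj mutants 1 and 2, 882 in control 1 and 0 to 9.3 in the other 9 intestines. Hoxa13 had 19.6 and 14.9 in these Cenpj mutants, 467 in control 1 and 0 to 14.7 in the other 9. Hoxd12, a limb gene, had 110.5 in Cenpj mutant 1, 295 in control 1 and 0 in the rest. Hoxd13 was thus higher in each of these 3 libraries than in the other 9, and control 1 alone had Hotair, a non-coding RNA of HoxC, above 0 (102.1). Groups 9 to 13 made up 14.98% and 11.65% of all Hox normalized counts in Cenpj mutants 1 and 2 and 22.09% in control 1, against 0.65% to 2.28% in the other 9 intestines. Hoxa9, which was above 0 in every intestine, had 2369 and 3204 in Cenpj mutants 1 and 2 and 3970 in control 1, against 177 to 758 in the other 9. Groups 1 to 3 did not separate these libraries, with sums of 14830 and 19430 in Cenpj mutants 1 and 2 and 16680 in control 1, against 15340 to 22960 in the other 9. Of groups 4 to 8, Hoxd8 (1200, 1463 and 1998 in that order, against 381.6 to 813.8) and Hoxd4 (370.6, 515.9 and 551.4, against 151.9 to 317) were above the other 9. Hoxb4 (6077, 6652 and 6764, against 7073.5 to 8909.5) was below them.

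Other measures of the 3 libraries stand beside this. In the order Cenpj mutant 1, Cenpj mutant 2 and control 1, summed markers of intestinal epithelium were 6941, 6104 and 7510 normalized counts, against 5177 to 18330 in the other 9 intestines. Sums for mesonephros and gonad (2223, 1553 and 2651, against 165 to 2778), for limb bud (10410, 6944 and 8151, against 4521 to 17150) and for spinal cord and somite (1275, 1368 and 1515, against 543.7 to 1392) overlapped those of the other 9. Lhx1, a mesonephros gene, was at 0 in both Cenpj mutants and 125.2 in control 1. Blood markers summed to 657800, 159400 and 491700 against 128000 to 291900, and hepatocyte markers to 4701, 40670 and 3640 against 4092 to 9852. Endothelial markers summed to 32410, 36780 and 33470 against 20970 to 32040, and this was the only one of the 16 cell type lists with all 3 above the other 9. Ddx3y, a Y-linked gene, had 1438 in Cenpj mutant 1 beside 98518 of Xist, the RNA of the inactive X, and 8063 in control 1 beside 93.7 of Xist. The other 10 intestines had at most 19.2 of Ddx3y. The part of these measures in the Hox values was not tested.

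Low levels of Hoxa13 and Hoxd13 appeared in most lungs. Hoxa13, which is needed for the hindgut and the limbs, had 102, 4.9, 21.3 and 142 normalized counts in Cenpj mutant lungs, 12.7 to 36 in Ift88 mutant lungs and 9.8 to 129 in control lungs, so it was above 0 in 12 of 12. In intestine it was 0 in 6 of 12 libraries, all 4 Ift88 mutants among them. Its log2 fold change was 3.11 (SE 0.85, limma adjusted p 0.00959) and 4.00 without the 3 intestines rich in groups 10 and 11. The mean of Hoxa13 was 54.7 in lung and 43.5 in intestine, where control 1 had 467.2. Hoxd13 was above 0 in 11 of 12 lungs (0 to 171.5, median 61) and in 4 of 12 intestines (0 to 882, median 0). Its log2 fold change of 3.20 (SE 1.08, adjusted p 0.0426) was called, but its mean was 67.4 in lung and 87.8 in intestine, since control 1 holds most of the intestinal reads. The call of Hoxd13 was lost with 16 of the 24 libraries left out in turn and with edgeR and DESeq2 (log2 fold change 1.14 with edgeR's TMM scaling). Hoxc13 was above 0 in 4 lungs, at most 50.7, and 0 in every intestine, and Hoxb13 was above 0 in 1 lung (44.8) and 2 intestines (0.9 in Ift88 mutant 3 and 70.5 in control 1). Of the other members of groups 9 to 12, Hoxb9 was above 0 in 12 of the 12 lungs, Hoxa9 in 11, Hoxa10 in 9 (mean 35.1 normalized counts), Hoxd9 in 8 and Hoxc10 in 6. Hoxa11 was above 0 in 1 lung, Hoxd10 and Hoxd11 in 4 each and Hoxd12 in 3. At these levels a few molecules may make up each value.

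Evx1 and Evx2, homeobox genes that lie beside Hoxa13 and Hoxd13 at the end of HoxA and HoxD, were in the list of Hox cluster regulators and neighbours. Evx2 had 27 to 383 normalized counts in the 12 lungs and 0 in 8 of the 12 intestines, with its highest intestinal value of 103.1 in control 1, and its log2 fold change was 5.00 (SE 0.75, limma adjusted p 9.37e-06). Evx1 had 12.7 to 392 in lung and 0 to 88 in intestine, and its log2 fold change was 2.45 (SE 0.66, adjusted p 0.00854). Of the 9 genes in that list 3 were higher in lung, Evx1 and Evx2 among them, and 1 was lower, against 6.66 percent higher and 8.86 percent lower over all genes. The lower one was Cdx2, at 0 in 11 lungs and 15 in lung control 2 against 534 to 3345 in intestine.

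Ift88 mutant lungs had 2 members called, both lower than in control lungs, out of 38 tested. Over all 31361 genes 1.07 percent were called, 0.437 percent higher and 0.631 percent lower. Hoxb1, which sets the identity of a hindbrain segment and is induced early by retinoic acid, had 396, 408.5, 577 and 337 normalized counts in Ift88 mutant lungs and 1306, 3802.5, 1088 and 956 in control lungs. All mutants lay below all controls, control 2 was far above the others, and the log2 fold change was -1.84 (SE 0.33, limma adjusted p 0.0107). Without control 2 it was -1.39 with an adjusted p of 0.016, and the call was lost without Ift88 mutant 1 (adjusted p 0.053), with limma-voom (adjusted p 0.057) and with library kind as a term (-1.74, adjusted p 0.102). Hoxc5 had 893, 1005, 1522 and 777 in Ift88 mutant lungs and 2172, 5308, 1554 and 2069 in control lungs. The groups did not overlap, though mutant 3 and control 3 lay close together, and the log2 fold change was -1.28 (SE 0.29, adjusted p 0.0345). The call of Hoxc5 was lost without Ift88 mutants 1, 2 or 4 or controls 1 or 2, where the log2 fold changes ran from -0.91 without control 2 to -1.34 without control 1, and with limma-voom (adjusted p 0.0793) and no filter (0.0816).

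Lung control 2 had the highest values of all lungs for Hoxb1, Hoxc4 (7440), Hoxc5, Hoxc6 (334) and Hoxc8 (245). Among others it was also the highest lung for Hoxa2 (2625.3), Hoxa3 (8860.2), Hoxb2 (2379.3) and Hoxb3 (8386.1). For Hoxa5 (18177.4) and Hoxb5 (10545.4) it was not the highest. The same library had the highest Gata4 of the lungs, a gene of the stomach list, at 18824 normalized counts against 5121 to 11176 in the other 11 lungs, and 15 of Cdx2, which was 0 in those 11. Summed markers of 4 of the 16 cell type lists did not overlap between Ift88 mutant and control lungs. Blood markers summed to 182600 to 294700 normalized counts in Ift88 mutant lungs and 367100 to 1279000 in control lungs, with 2 of 4 genes called lower. Gut mesenchyme markers summed to 5959 to 7024 in Ift88 mutant and 7539 to 12180 in control lungs, with 0 of 6 genes called. Intestinal epithelium markers summed to 559.7 to 657.8 in Ift88 mutant and 734.7 to 1119 in control lungs, with 0 of 6 tested genes called, Isx at 0 in both groups and Cdx2 at 0 in the mutants. Spinal cord and somite markers summed to 1784 to 2097 in Ift88 mutant and 911.1 to 1700 in control lungs, with 0 of 6 tested genes called and Olig2 at 0 in both groups. The part of these measures in the Hox values was not tested.

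The other members in Ift88 mutant lungs are given here by their values. At an unadjusted p under 0.05, 7 members had higher values in the mutants (Hoxa5, Hoxa6, Hoxa7, Hoxb5, Hoxb7, Hoxb8 and Hoxd9), against 5.74 percent of all genes tested. Another 8, the 2 called ones included, had lower values (among them Hoxa10, Hoxb1, Hoxc4, Hoxc5, Hoxd4, Hoxd8 and Hoxd10), against 6.49 percent of all genes. Hoxa7 had 690.3 to 1059 in Ift88 mutant lungs and 65.6 to 679.6 in control lungs, without overlap, and a log2 fold change of 1.62 (SE 0.52, limma adjusted p 0.153). Hoxb8 had 3044, 2882, 3307 and 2803 in Ift88 mutant lungs and 1345, 1204, 277 and 3257 in control lungs, and a log2 fold change of 1.45 (SE 0.46, adjusted p 0.156). Control 4 lay inside the range of the mutants, and control 3 had the lowest Hoxa6, Hoxa7 and Hoxb8 of the 12 lungs. Without control 4 the count of called members was 6, with Hoxa5, Hoxa6, Hoxa7 and Hoxb8 higher beside Hoxb1 and Hoxc5. The share of all genes called was given for the main fit only, not for this one.

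**Figure D4:**
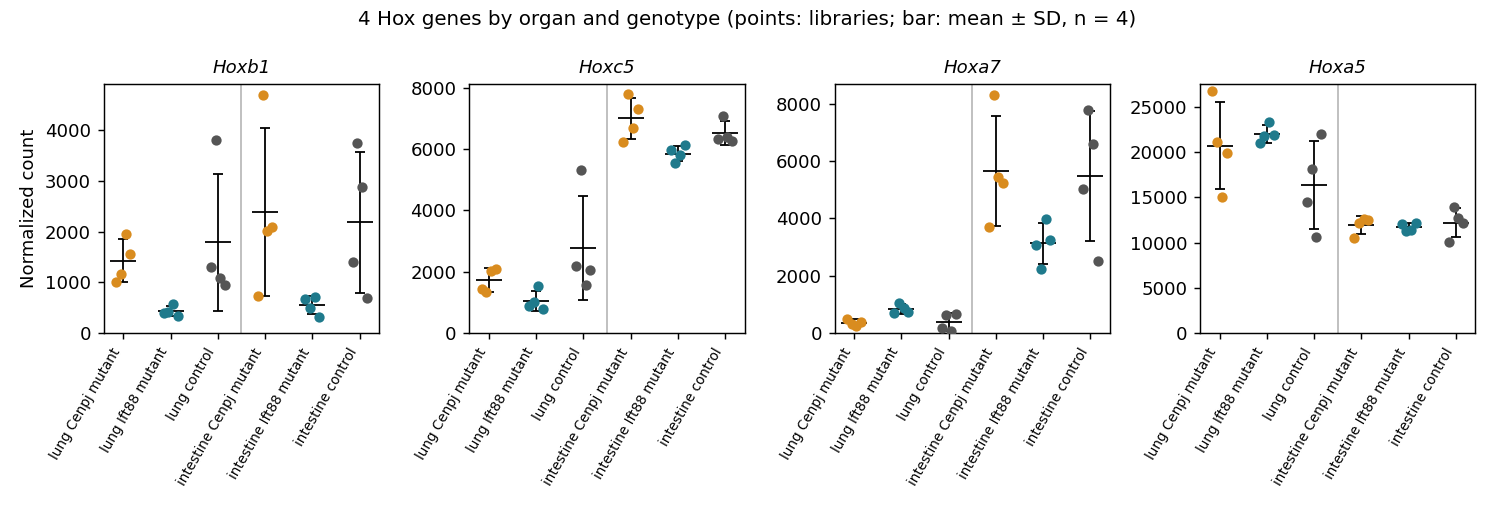
Each panel is a gene, with normalized counts on the y axis and the 6 groups on the x axis; points are libraries, and the horizontal line and bar are mean ± SD (n = 4). Hoxb1 is low in Ift88 mutants of both organs, Hoxc5 and Hoxa7 separate the organs, and Hoxa5 is higher in most lungs.

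In Ift88 mutant intestine no member was called by limma out of 37 tested, against 0.719 percent of 31592 genes. At an unadjusted p under 0.05 there were 3 with higher values in the mutants (Hoxa2, Hoxb3 and Hoxd3), against 7.52 percent of all genes, and 4 with lower values (Hoxa7, Hoxb1, Hoxc8 and Hoxd9), against 5.88 percent. DESeq2 called 6 (Hoxa2 higher, and Hoxa11, Hoxb1, Hoxc10, Hoxd10 and Hoxd11 lower). Hoxb1 had 669, 502, 718 and 321 normalized counts in Ift88 mutant intestines and 1406, 3748, 2886 and 690.3 in control intestines. Control 4 lay inside the range of the mutants, and the log2 fold change was -1.77 (SE 0.49, limma adjusted p 0.0941). Hoxa2, a gene of hindbrain and neural crest patterning, had 2134, 2383, 2298 and 2487 in Ift88 mutant intestines and 1175, 1603, 1536 and 2058 in control intestines. The groups did not overlap, and the log2 fold change of Hoxa2 was 0.57 (SE 0.16, adjusted p 0.0971). Without control 4 there were 5 members called, Hoxa2 higher and Hoxa7, Hoxb1, Hoxb9 and Hoxc8 lower. The share of all genes called was given for the main limma fit only, not for this fit or for DESeq2. Control 4 was close to the mutants in enteric neural crest genes too: Tubb3, a neuronal tubulin, was 8417 there, 8259 to 10860 in the Ift88 mutants and 1555 to 2472 in the other 3 controls. The part of this in the Hox values was not tested. All 4 Ift88 mutant intestines were at 0 for Hoxa11, Hoxc10, Hoxd10 and Hoxd11, and so were control intestines 2, 3 and 4, so control 1 alone separates the groups for these genes.

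**Figure D5:**
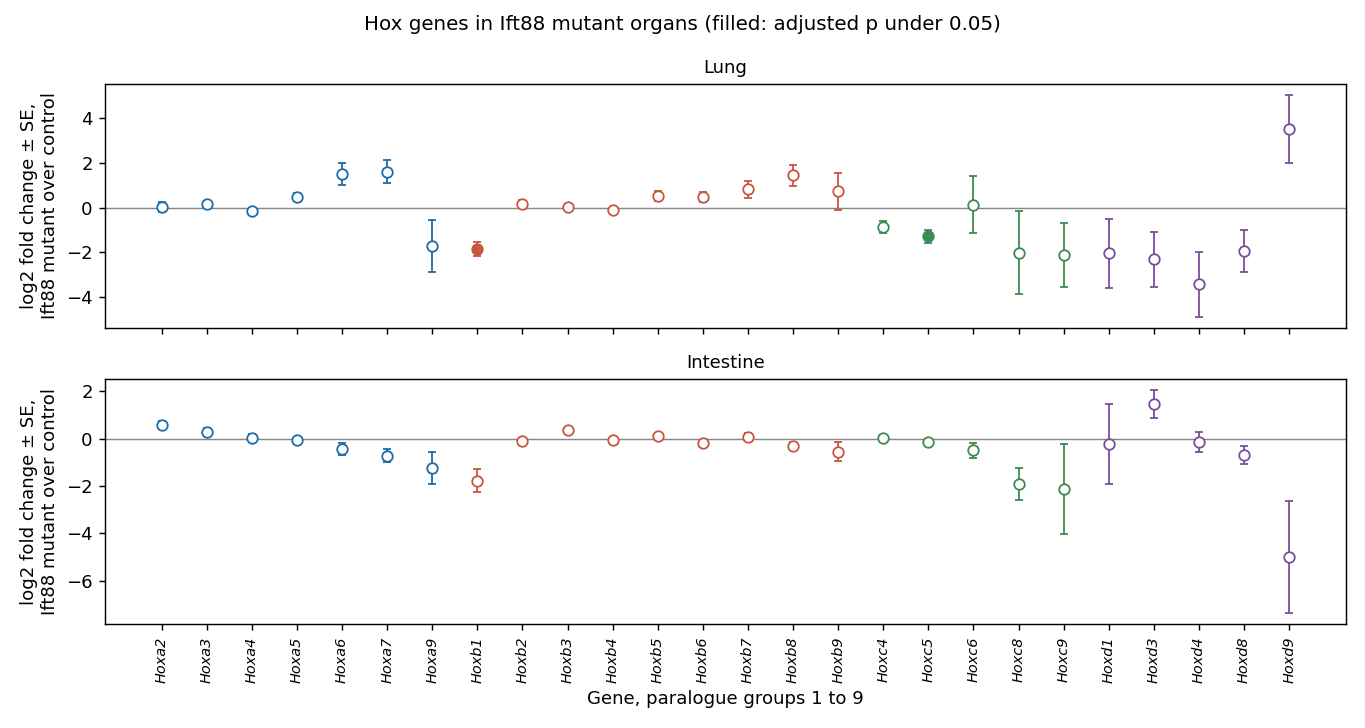
The upper panel is lung and the lower panel intestine; the y axis gives the log2 fold change of Ift88 mutant over control with its SE (limma) for members of groups 1 to 9 reported here, coloured by cluster, and filled points passed an adjusted p of 0.05. Hoxb1 lies near -1.8 in both organs, and in lung Hoxa6, Hoxa7 and Hoxb8 lie above 0 while Hoxc4 and Hoxc5 lie below.

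In Cenpj mutant lung no member was called by limma out of 38 tested, against 0.513 percent of all genes. At an unadjusted p under 0.05, 1 member had higher values in the mutants (Hoxd13, against 5.01 percent of all genes) and 2 had lower values (Hoxb3 and Hoxc4, against 6.49 percent), and DESeq2 called 1, Hoxc4. Hoxc4 had 2057, 1792, 2598 and 2790 normalized counts in Cenpj mutant lungs and 3163, 7440, 2303 and 3766 in control lungs, and its log2 fold change was -0.73 (SE 0.25, limma adjusted p 0.224). The groups overlapped, and control 2 was far above the others. Hoxb3 had 3791.5 to 6356 in Cenpj mutant lungs and 5619.5 to 8386 in control lungs, with overlap and a log2 fold change of -0.47 (SE 0.14, adjusted p 0.165). In intestine no member was called by limma, edgeR or DESeq2 out of 37 tested, against 0 percent of all genes. At an unadjusted p under 0.05, 0 members had higher values (against 2.81 percent of all genes) and 2 had lower values (Hoxb2 and Hoxb3, against 2.3 percent). Hoxb2 had 1313 to 1581 in Cenpj mutant intestines and 1667 to 2038 in control intestines, without overlap, and a log2 fold change of -0.34 (SE 0.13, adjusted p 0.893). Hoxb3 had 3556 to 4823 in Cenpj mutant intestines and 4471 to 5727 in controls, and a log2 fold change of -0.29 (SE 0.12, adjusted p 0.90). The other library kind cannot be told apart from the genotype in these 2 fits, apart from the 1 ribosomal-rich control of each organ.

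Whether a mutation acted differently in the 2 organs was tested by the interaction of genotype and organ. No member was called by limma for Cenpj, against 0 percent of all genes, and none had an unadjusted p under 0.05 (4.76 percent of all genes). None was called for Ift88, against 0.0125 percent of all genes, 10 had an unadjusted p under 0.05 (7.27 percent), and DESeq2 called 2, Hoxa13 and Hoxc10, which are both at 0 in every Ift88 mutant intestine. The members with the smallest p were Hoxa7 and Hoxc5. For Hoxa7 the log2 fold change was 1.62 in lung and -0.72 in intestine, with a difference of 2.33 (SE 0.66, limma adjusted p 0.233). For Hoxc5 it was -1.28 in lung and -0.15 in intestine, with a difference of -1.13 (SE 0.34, adjusted p 0.26). Hoxb1 had a difference of -0.07 (SE 0.67). For Cenpj the smallest p values belonged to Hoxc4 (difference -0.60, SE 0.31) and Hoxc5 (-0.65, SE 0.34), both with an adjusted p of 0.932.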

How the data were processed

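Whole lung and small intestine of E11.5 mouse embryos were profiled by RNA sequencing in 24 libraries, 4 in each of 6 groups. Per the submitters' processing notes, STAR 2.5.2b and DESeq2 1.16.1 were used with the builds GRCm38 and mm10, and the counting tool is not named there. Per the file headers, the deposited signal is the normalized read count per gene, which the authors divided by one size factor per library and rounded to 1 decimal. The authors also deposited linear fold changes (ratios) and p-values with FDR for their own comparisons, which were read but not used for any value here.

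Low values were whole multiples of one step per library for 99.89 to 100% of values, within 0.051 of the value, which gave back reads for count tests. The planned test was for counts, and since the columns hold normalized values, limma 3.58.1 in R 4.3.3 was used on log2(normalized count + 1) with a trended variance, for genes with a mean of at least 1, with Benjamini-Hochberg adjustment over all genes tested and a threshold of 0.05. Lung and intestine were compared within and across genotypes, and each mutant with the controls in its organ. edgeR 4.0.16, DESeq2 1.42.0, limma-voom, other pseudocounts and filters, the replicate number as a block, a term for library kind and left-out libraries were alternatives. The scripts were tested on simulated data.

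The Hox genes, gene lists and tests were chosen with earlier results of these data known. Named genes were those with the largest organ differences at a mean of 50 or more, the smallest p in each genotype comparison, and the neighbours of each change of sign. A few items are withheld and not reported here, though they stay in the fits and in counts over lists. Levels per kilobase used GENCODE M21 exon lengths, and promoters came from RefSeq, GRCm38.p6. Same-numbered control lungs and control intestines deviated together over genes with a mean of at least 100 (correlations 0.101 to 0.244, and -0.217 to 0.08 for unlike numbers). There 8 of 8 of these libraries matched best with their own number. Over all genes tested they did not (-0.013 to 0.036), with 4 of 8 matching best. The labels do not say what a number marks, and the main fits did not pair libraries by number.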

Additional observations from a re-analysis of the deposited data

Results flagged for a closer look

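Only the named members were looked at for single libraries that stood apart. Within groups of 4 libraries, 12 of 117 combinations of such a gene and a group had 1 library far from the other 3. Combinations needed a mean of 50 or more, and Dixon's ratio of gap to range was the measure. No chance rate is set beside this count, because the members were named from these same data. Some combinations, such as Hoxa11 and Hoxd12 in control intestines, reached that mean only through the library that was flagged. Intestine control 1 stood high for 6 of the named members: Hoxa9 (3970.3 normalized counts), Hoxa10 (3761.9), Hoxa11 (535.6), Hoxa13 (467.2), Hoxd12 (294.6) and Hoxd13 (881.8). It also stood far above the other control intestines for Hoxd9 (4021.8), Hoxd10 (4232.3), Hoxc10 (1728.9) and Hoxd11 (1339.6), which were not among those looked at. Lung control 2 stood high for Hoxb1 (3802.5) and Hoxc5 (5307.7), the 2 members called in Ift88 mutant lung. Lung Cenpj mutant 1 stood high for Hoxb5 (20354.9) and Hoxb6 (14137.0). The other flags were Hoxa2 in lung Cenpj mutant 3, which was low (993.8), and Hoxc5 in intestine control 2, which was high (7090.0).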

How the results depend on the processing

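Of the 22 members called between lung and intestine, 19 kept their call and direction in all 36 alternatives, and Hoxb6, Hoxc9 and Hoxd13 did not. The count of calls was 22, with 20 to 22 when each library was left out and 20 to 23 otherwise. Within genotypes it was 16 in Cenpj mutants (15 to 17 with libraries left out, 11 to 17 otherwise), 16 in Ift88 mutants (13 to 14, and 14 to 20) and 15 in controls (12 to 14, and 12 to 16). In Ift88 mutant lung the count of 2 became 1 with limma-voom (Hoxa10, with Hoxb1 and Hoxc5 lost), 1 with no filter (Hoxb1) and 1 to 6 with libraries left out. In Ift88 mutant intestine the count of 0 became 6 with DESeq2, 1 (Hoxb1) with the replicate block and 0 to 5 with libraries left out. DESeq2 also called 1 member in Cenpj mutant lung and 2 for the Ift88 difference between organs. The cause of these changes was not tested. Shares over all genes are given for the main limma fits only, so counts under the alternatives have none beside them. The replicate block gave 21 calls between the organs on average, 16 in Cenpj mutants, 15 in Ift88 mutants, 15 in controls and 2 in Ift88 mutant lung, and same-numbered libraries share only a number in most pairs of groups. For named members, 1488 values kept their direction and side of the threshold, 112 lost the call, 6 gained one and 0 reversed. Leaving out the 3 intestines rich in groups 10 and 11 was chosen after seeing the data. Values near 13 to 40 reads may rest on few molecules, which limits groups 10 to 13 in lung.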

Other observations

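Hox cofactors also differed between the organs: of 9 genes, 2 were higher in lung and 6 lower, against 6.66 percent higher and 8.86 percent lower over all genes. Meis2, a DNA-binding partner of Hox proteins, had 11289 to 23276 normalized counts in lung and 36549 to 51203 in intestine, without overlap, and a log2 fold change of -1.40 (limma adjusted p 2.42e-15). Pknox2, a relative of Meis, had 1016 to 2213.5 in lung and 3179 to 5346 in intestine (log2 fold change -1.50, adjusted p 1.54e-12). In Ift88 mutant lung Meis2 (-0.60, adjusted p 0.0177) and Pbx3 (-0.50, adjusted p 0.0343) were lower than in control lung.

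Of 22 polycomb and trithorax regulators, which keep Hox clusters silent or active, 0 were higher in lung than in intestine and 5 lower (8.86 percent of all genes were lower), led by Cbx7 (log2 fold change -0.86, limma adjusted p 0.000345), a polycomb subunit. That was the mean of 3 genotypes. Within genotypes 4 were lower in Cenpj mutants, 1 in Ift88 mutants and 0 in controls, against 3.98, 5.37 and 2.73 percent of all genes. In Cenpj mutant lung 3 were lower than in control lung, where 0.513 percent of all genes were called in either direction: Kmt2a (10179 to 14723 in mutants, 16200 to 25723 in controls, log2 fold change -0.72, adjusted p 0.016), Kmt2b (-0.63, adjusted p 0.0159) and Kdm6b (-0.63, adjusted p 0.0371). Library kind and the Cenpj genotype cannot be told apart there beyond lung control 3. Among 16 non-coding genes of the clusters, 13 were tested between the organs, Hotairm1 was higher in lung (0.66, adjusted p 0.000496) and Haglr (-3.11, adjusted p 0.000624), Hoxd3os1 and Hoxb5os were lower, against the same 6.66 and 8.86 percent of all genes.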
